A study of Mus musculus with 9 samples.

Results

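The genes described here encode 7 secreted proteins of goblet cell mucus in the mouse colon, Muc2, Tff3, Clca1, Fcgbp, Zg16, Agr2 and Spink4. They were taken by their gene symbols from a table of 27719 genes, all 7 were found, and all 7 were among the 12566 genes with enough counts to be tested. Total RNA of colon tissue from 9 C57BL/6J mice was sequenced on Nanopore as amplified cDNA, with 1 library per mouse and 3 mice in each of 3 groups. The control group drank distilled water. The DSS group was given 2.5% dextran sodium sulfate (DSS), a sugar polymer that injures the colon epithelium and causes colitis, in drinking water for 7 days. The DSS + EA group was given the same DSS and, once 5 days of modeling had passed, electroacupuncture (EA) at both ST36 points of the leg, 30 minutes once a day for 5 days at 2 Hz and 0.2 mA. Handling without EA was part of the protocol of both other groups. No transgene or engineered allele is named for any group, and age and sex are not given in the sources used here.

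Goblet cells are the mucus-secreting cells of the intestinal lining. They store densely packed mucin in granules and release it into the lumen, where it swells into the layer that keeps bacteria away from the epithelium. The frame of this layer is a net of the gel-forming mucin Muc2, and the other proteins are stored and secreted with it. Fcgbp is a large mucus protein with repeated von Willebrand D domains, as Muc2 has, and Clca1 is a secreted metalloprotease that cleaves mucus proteins. Zg16 is a small lectin that binds Gram-positive bacteria, Tff3 is a trefoil peptide linked to epithelial repair, and Spink4 is a small protein of the Kazal inhibitor family. Agr2 is a disulfide isomerase of the endoplasmic reticulum that is needed to make Muc2 and is also secreted. Loss of mucus and of goblet cells is a known feature of DSS colitis.

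Values are CPM, counts divided by the library total and scaled between libraries by TMM, a method that assumes that most genes do not change. Library totals ranged from 2627695 to 4235576 counts, so that 3 counts correspond to 0.708 to 1.14 CPM. A gene was called where edgeR's quasi-likelihood test gave a p-value under 0.05 after Benjamini-Hochberg adjustment over all genes tested. The study's own rule for differentially expressed genes (DEGs), a log2 fold change beyond 2.5 with an unadjusted P under 0.01, is given beside it. The libraries of the DSS + EA group held RNA of pancreatic digestive enzymes: the summed level of 7 pancreatic genes was 287.3, 24228.6 and 10119.7 CPM in its mice 1, 2 and 3, and at most 3.539 CPM in any other mouse. The summed level of 10 general epithelial genes was 10839.4 CPM in DSS mouse 1, close to the control mice (10923.6 to 12116.0 CPM), and 4538.8 and 2630.2 CPM in DSS mice 2 and 3. Lgals4, a galectin, gave 59.3% of the sum in DSS mouse 1 (6431.2 CPM, above every control mouse), while 7 of the other 9 genes lay below every control mouse there. Lgals4 is named here after its values were seen. The 3 comparisons share mice, so each comparison's values stand side by side and are not independent of the others. In whole tissue, fewer goblet cells and less RNA per goblet cell cannot be told apart.

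The genes lie on 5 chromosomes of the mouse genome (GRCm38, GENCODE M21) and differ in transcript length. Muc2 is at chr7:141690340-141754693 on the plus strand and Fcgbp, whose transcript has 7928 bases in 20 exons, at chr7:28071236-28120862 on the same strand. Clca1 lies at chr3:145003817-145032776 on the minus strand and has a transcript of 3655 bases in 14 exons. The others are short: Agr2 (784 bases, chr12:35992907-36004087, plus), Zg16 (682 bases, chr7:127050156-127087328, minus), Tff3 (493 bases, chr17:31125306-31129646, minus) and Spink4 (397 bases, chr4:40920052-40931395, plus). Of the 8 annotated Muc2 transcripts, 5 are incomplete models, and the exons of all 8 cover 7127 bases. Which reads the counting assigned to Muc2 therefore depends on models that do not span the whole mRNA. The gene models that overlap Zg16, Gm22747 and Gm44939, have no line in the count table.

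Promoter sequences from RefSeq (GRCm38.p6) were found for 3 of the 7 genes. They are shown because these genes fell together in the DSS group and because factors that bind E-box and CACCC letters act in the secretory lineage. Each is the 250 bases before the RefSeq transcription start, 5′ to 3′ on the plus strand, and capitals mark CAGCTG (an E-box that reads the same on both strands) and CACCC. Where the latter lies on the other strand, it is read here as its reverse complement, GGGTG. For Agr2 the RefSeq start lies downstream of the GENCODE start given above, so the last bases of its window are within the GENCODE gene.
Muc2 (chr7:141690090-141690339): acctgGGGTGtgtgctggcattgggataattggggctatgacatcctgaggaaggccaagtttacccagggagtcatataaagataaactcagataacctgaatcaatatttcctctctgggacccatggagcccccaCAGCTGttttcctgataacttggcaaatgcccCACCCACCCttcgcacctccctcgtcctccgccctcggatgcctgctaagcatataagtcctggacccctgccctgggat
Fcgbp (chr7:28070986-28071235): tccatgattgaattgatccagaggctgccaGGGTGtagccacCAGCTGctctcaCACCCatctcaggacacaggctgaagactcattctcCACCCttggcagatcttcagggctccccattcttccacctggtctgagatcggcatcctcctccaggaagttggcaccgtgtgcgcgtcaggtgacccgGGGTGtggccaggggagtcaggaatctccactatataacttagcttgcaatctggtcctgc
Agr2 (chr12:35992675-35992924): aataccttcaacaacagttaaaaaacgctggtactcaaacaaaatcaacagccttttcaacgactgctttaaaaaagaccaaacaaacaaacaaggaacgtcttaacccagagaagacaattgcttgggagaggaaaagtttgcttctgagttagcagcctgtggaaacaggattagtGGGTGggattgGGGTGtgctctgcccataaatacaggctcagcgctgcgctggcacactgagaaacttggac
The letters CAGCTG occurred once in the Muc2 window, 112 bases before the start, and once in the Fcgbp window, 208 bases before it. The Agr2 window held none. In 32851 RefSeq promoter windows of the same length, 13% held CAGCTG on either strand. CACCC occurred 3 times in the Muc2 window, 4 times in the Fcgbp window and 2 times in the Agr2 window, and 52% of all windows held it. TATAAA was found in the Muc2 window, 174 bases before the start, where it overlaps a match of TTTAT on the other strand, and 12.4% of all windows held it. TTTAT was also in the Agr2 window and was held by 37.3% of windows. The letters CAGATG, which 14.4% of all windows held, were in none of these 3. The same was so for CCGGAT, held by 4.94% of windows. No match was found either for TGTTTAC, which 3.17% of windows held, or for the letters ACGTG, held by 16.6%. These are matches of letters in a short window, not binding sites.

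In the control colon the 7 genes together took 3.06% ± 0.608 (SD, n = 3) of all counts. By mean CPM the order was Spink4, Agr2, Tff3, Zg16 (3856.2 ± 81.47 CPM), Clca1 (3821.0 ± 2084.0), Fcgbp and Muc2, and the mice of Zg16 and Clca1 overlapped. A long read can stand for 1 whole molecule, so counts need not grow with transcript length in such libraries, and the order changed when levels were divided by length. Per kilobase of transcript, Spink4 had 26091.8 ± 11843.3 CPM (SD, n = 3), Tff3 9082.3 ± 519.6, Agr2 7400.0 ± 1062.1, Zg16 5654.2 ± 119.5, Clca1 1045.4 ± 570.2 and Fcgbp 245.6 ± 110.5, and no neighbours in this order overlapped. Muc2 had 121.1 ± 11.12 CPM per kilobase over the exons of all its models and 424.9 ± 39.01 over its transcript of 2032 bases, so its place beside Fcgbp depends on the model. In the DSS group the order per kilobase of the other 6 was the same, and all neighbours except Zg16 and Clca1 overlapped. In the DSS + EA group Zg16 stood above Agr2, and no neighbours overlapped.

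All 7 genes were lower in DSS mice than in control mice. Each was called, at a share of 19.5% of all genes tested that were called lower and 21.5% that were called higher. In each of the 7 every DSS mouse lay below every control mouse, which was so for 25.9% of all genes tested. Their median log2 fold change was -3.13, against 0.02 over all genes. Under the DEG rule Muc2, Clca1, Fcgbp and Spink4 were lower, 4 of 7, against 3.57% of all genes tested.

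Muc2, the gel-forming mucin, had 929.8, 884.7 and 775.6 CPM in control mice 1, 2 and 3, and 197.2, 60.4 and 8.114 CPM in DSS mice 1, 2 and 3. The control mice were close to each other, and the DSS mice spread widely below them, with mouse 3 at 26 counts. The log2 fold change was -3.29 (SE 0.80, adjusted p = 0.0095, edgeR), from 863.4 ± 79.27 to 88.57 ± 97.64 CPM (SD, n = 3 each).

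Fcgbp had 1929.0, 2832.1 and 1080.7 CPM in the control mice and 138, 80.83 and 10.92 CPM in the DSS mice. The lowest control mouse was still well above the highest DSS mouse. Its log2 fold change was -4.67 (SE 0.76, adjusted p = 0.00126, edgeR). Clca1, the metalloprotease, fell furthest of the 7. It had 2358.0, 6207.1 and 2897.9 CPM in the control mice and 39.25, 95.17 and 4.369 CPM in the DSS mice, where mouse 2 and not mouse 1 was highest. The log2 fold change was -6.36 (SE 0.94, adjusted p = 0.000754, edgeR), an 82-fold lower mean level.

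Tff3, Zg16 and Agr2 had smaller log2 fold changes, while that of Spink4 was close to that of Muc2 (-3.29). Differences between the genes were not tested. Tff3 had 4210.5, 4721.2 and 4500.9 CPM in the control mice and 1659.3, 774.8 and 216.9 CPM in the DSS mice, a log2 fold change of -2.34 (SE 0.55, adjusted p = 0.00792, edgeR). Zg16 had 3921.8, 3765.0 and 3881.7 CPM in the control mice and 1602.4, 968 and 272.4 CPM in the DSS mice, a log2 fold change of -2.02 (SE 0.49, adjusted p = 0.00856, edgeR). For both, the control mice were within a narrow range and DSS mouse 1 was the highest and mouse 3 the lowest below it. Spink4 had 7007.4, 15733.3 and 8334.7 CPM in the control mice and 2474.2, 777.8 and 288.1 CPM in the DSS mice, a log2 fold change of -3.13 (SE 0.67, adjusted p = 0.00507, edgeR). Agr2, the isomerase, had 4845.8, 6189.1 and 6369.9 CPM in the control mice and 2897.6, 747.4 and 345.2 CPM in the DSS mice, a log2 fold change of -2.13 (SE 0.62, adjusted p = 0.0207, edgeR). Control mouse 2 was the highest control in Spink4, Clca1, Fcgbp and Tff3, but not in Zg16, Muc2 or Agr2.

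**Figure D1:**
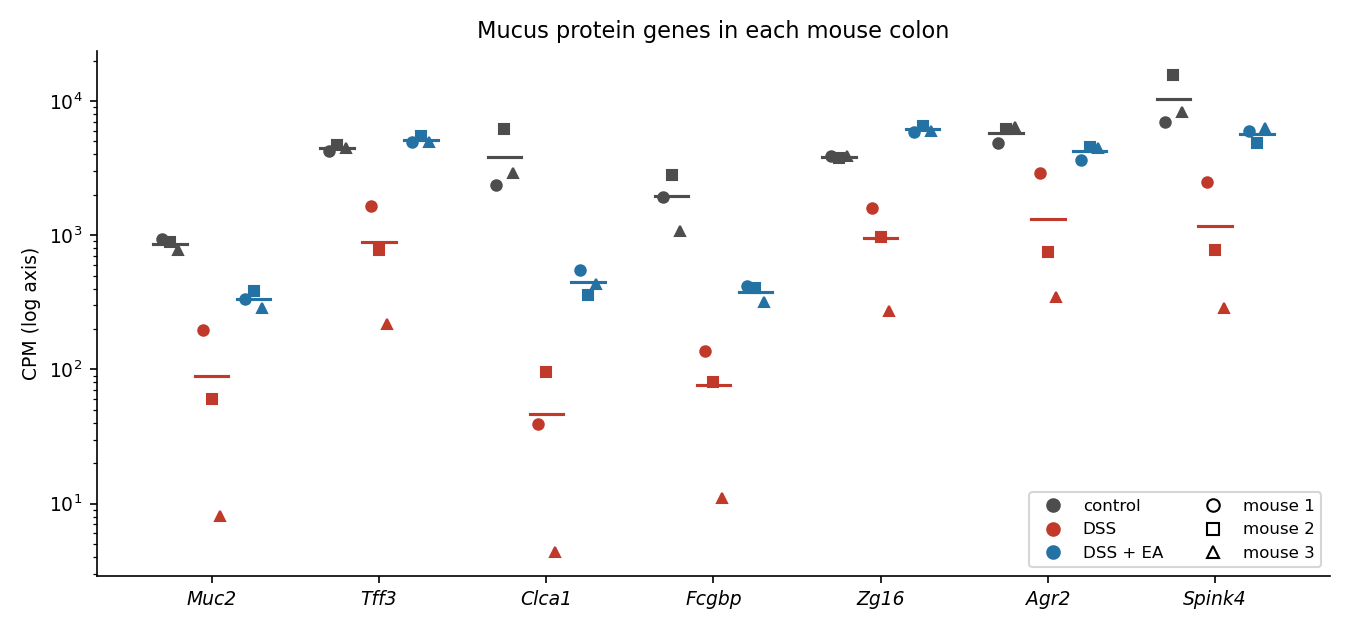
Level of the 7 mucus protein genes in each mouse, in CPM on a log axis, by gene on the horizontal axis. Grey, red and blue points are control, DSS and DSS + EA mice, the point shape gives the mouse number and the bar is the group mean (n = 3). The DSS mice lie below all control and all DSS + EA mice in every gene, and the DSS + EA mice lie below the control mice in Muc2, Clca1, Fcgbp, Spink4 and Agr2 and above them in Tff3 and Zg16.

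Leaving out mice moved these values without turning any direction. Agr2 was no longer called without control mouse 3 (log2 fold change -2.07, adjusted p = 0.0513, edgeR) or without DSS mouse 2 (-1.83, adjusted p = 0.0743, edgeR). Without DSS mouse 1 the log2 fold changes were larger for 6 genes, -4.66 for Muc2, -3.43 for Agr2, -4.31 for Spink4, -3.20 for Tff3, -5.42 for Fcgbp and -2.66 for Zg16, and -6.27 for Clca1. Without DSS mouse 2 the value for Clca1 was -7.45.

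Since the summed epithelial genes were lower in 2 of the DSS mice, the 7 genes were also set against that sum. In a fit with each library scaled to its summed counts of 10 epithelial genes, which moved the median log2 fold change of all genes from 0.02 to 1.37, all 7 were called lower, against 3.6% of all genes tested. Zg16 had a log2 fold change of -1.14 (adjusted p = 0.0396, edgeR), the smallest, and Clca1 one of -5.27 (adjusted p = 7.17e-05, edgeR), the largest. With Lgals4 left out of the scaling, a choice made after seeing the data, 6 of the 7 were called lower, against 3.05% of all genes, and Zg16 was not (-0.94, adjusted p = 0.0871, edgeR). Counted directly, there were 7.65 ± 1.09 Muc2 counts per 100 epithelial counts in the controls and 1.15 ± 0.771 after DSS (SD, n = 3 each). All 7 such ratios lay lower in every DSS mouse than in every control mouse, also without Lgals4 in the epithelial sum. No share over all genes is given for these ratios, so the count of 7 has no background beside it. An exact two-sided permutation test of 3 against 3 mice gives no p below 0.1, the value found for each of the 7, which became 0.12 after Benjamini-Hochberg adjustment over 39 ratio tests.

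In the DSS + EA group all 7 genes had higher mean levels than in the DSS group, and 5 were called higher: Tff3, Clca1, Fcgbp, Zg16 and Spink4. Over all genes tested 17.2% were called higher and 18.3% lower. Every DSS + EA mouse lay above every DSS mouse in each of the 7, as in 24.2% of all genes tested. The median log2 fold change was 2.31, against -0.02 over all genes. Under the DEG rule Tff3, Clca1 and Zg16 were higher, against 2.91% of all genes tested.

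Zg16 and Tff3 were the most clearly raised. Zg16 had 5884.6, 6541.3 and 6027.5 CPM in DSS + EA mice 1, 2 and 3, a log2 fold change of 2.70 over the DSS group (SE 0.50, adjusted p = 0.00341, edgeR). Tff3 had 4976.0, 5530.6 and 4910.3 CPM, a log2 fold change of 2.54 (SE 0.56, adjusted p = 0.00739, edgeR). In both genes the 3 DSS + EA mice were within a narrow range, far above the highest DSS mouse. Spink4 had 5968.3, 4878.8 and 6242.2 CPM, a log2 fold change of 2.27 (SE 0.65, adjusted p = 0.0224, edgeR).

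Clca1 had 553.9, 359.7 and 435.5 CPM in the DSS + EA mice, a log2 fold change of 3.27 over the DSS group (SE 0.82, adjusted p = 0.0129, edgeR). Fcgbp had 417.6, 401.9 and 318.2 CPM, a log2 fold change of 2.31 (SE 0.69, adjusted p = 0.027, edgeR). In both genes every DSS + EA mouse lay below every control mouse. Muc2 and Agr2 did not pass the test. Muc2 had 332.4, 385.1 and 287.4 CPM, a log2 fold change of 1.92 (SE 0.76, adjusted p = 0.0738, edgeR). Agr2 had 3618.9, 4580.7 and 4495.4 CPM, a log2 fold change of 1.67 (SE 0.61, adjusted p = 0.056, edgeR).

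These calls depended on single mice. Without DSS mouse 1 all 7 genes were called higher, with log2 fold changes of 3.30 for Muc2 (adjusted p = 0.00339, edgeR), 2.98 for Agr2 (adjusted p = 0.00023, edgeR), 3.45 for Spink4, 3.40 for Tff3, 3.34 for Zg16 and 3.06 for Fcgbp. Without DSS mouse 3 Muc2 was called too (1.39, adjusted p = 0.0357, edgeR), and without DSS mouse 2 Clca1 had 4.36. Without DSS mouse 2 the call was lost for Fcgbp (adjusted p = 0.0762, edgeR) and Spink4 (adjusted p = 0.0819, edgeR). Fcgbp also lost it without DSS + EA mouse 1, 2 or 3 (adjusted p = 0.0625, 0.0571 and 0.0549, edgeR) and Spink4 without DSS + EA mouse 1 or 3 (adjusted p = 0.0525 and 0.0605, edgeR). Tff3, Clca1 and Zg16 were called with any 1 of the 9 mice left out.

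The 7 pancreatic genes summed higher in every DSS + EA mouse than in any DSS mouse, and least in mouse 1 of the DSS + EA group. With mouse 1 alone standing for that group, a choice made after seeing the data, the log2 fold changes kept their direction. They were 2.65 for Zg16, 2.51 for Tff3, 3.60 for Clca1, 2.46 for Fcgbp, 2.35 for Spink4, 1.92 for Muc2 and 1.45 for Agr2. A group of 1 mouse shows no spread of its own, so no test is read from this fit. Zg16 is named after the zymogen granules of the pancreas. The 7 pancreatic genes summed to 287.3, 24228.6 and 10119.7 CPM in DSS + EA mice 1, 2 and 3. Zg16 had 5884.6, 6541.3 and 6027.5 CPM in these mice, each above every control mouse. What part pancreatic tissue had in the Zg16 counts was not tested.

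Scaled to the epithelial genes, which moved the median log2 fold change of all genes from -0.02 to -1.25, all 7 genes were called higher in DSS + EA than in DSS mice, against 3.21% of all genes tested. Muc2 then had 1.47 (adjusted p = 0.0313, edgeR), Agr2 1.12 (adjusted p = 0.0492, edgeR), Clca1 2.28 and Zg16 1.93. Without Lgals4 in the scaling 6 of the 7 were called, against 2.97% of all genes, and Agr2 was not (1.00, adjusted p = 0.094, edgeR). Per 100 epithelial counts, the DSS + EA mice had more counts of each of the 7 than any DSS mouse, for example 59.2 ± 6.06 of Zg16 against 15.5 ± 5.52 (SD, n = 3 each; exact permutation p = 0.1, the smallest possible). Without Lgals4 in the sum the mice overlapped for 1 of the 7, Agr2. Here too no share over all genes is given for the ratios.

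**Figure D2:**
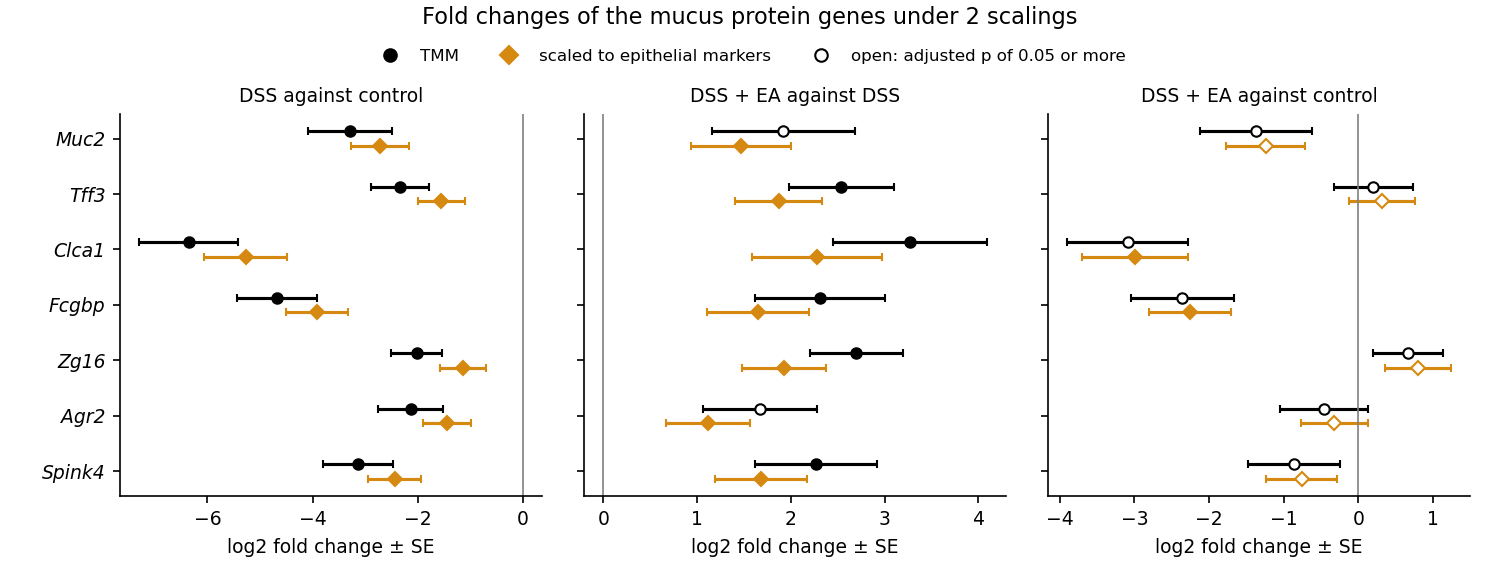
Log2 fold change (horizontal axis, bars ± SE) of each gene in the 3 comparisons, with TMM scaling (circles) and with libraries scaled to 10 epithelial genes (diamonds). Filled symbols have an adjusted p under 0.05. All 7 genes lie left of 0 for DSS against control and right of 0 for DSS + EA against DSS under both scalings, and for DSS + EA against control Clca1 (-3.09) and Fcgbp (-2.36) lie furthest left.

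Between the DSS + EA and control groups none of the 7 genes was called by edgeR, with 3% of all genes tested called higher and 0.637% lower. At an unadjusted p under 0.05 there were 2, Clca1 and Fcgbp, and DESeq2 called the same number, 2. Under the DEG rule Clca1 was lower, against 0.334% of all genes tested. By the order of the mice alone, every DSS + EA mouse lay below every control mouse in 5 of the 7, as in 14.2% of all genes tested. In Tff3 and Zg16, 2 of the 7, every DSS + EA mouse lay above every control mouse. That count is not far from the 18% of all genes tested for which it was so. The median log2 fold change was -0.86, against 0.00 over all genes.

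Clca1 in the DSS + EA group was at 11.8% of its control mean (449.7 ± 97.9 against 3821.0 ± 2084.0 CPM, SD, n = 3 each), a log2 fold change of -3.09 (SE 0.81, adjusted p = 0.0705, edgeR). Fcgbp was at 19.5% (379.2 ± 53.46 against 1947.3 ± 875.8 CPM), a log2 fold change of -2.36 (SE 0.69, adjusted p = 0.101, edgeR). Muc2 was at 38.8% (334.9 ± 48.9 against 863.4 ± 79.27 CPM), a log2 fold change of -1.37 (SE 0.75, adjusted p = 0.398, edgeR). The gap between the groups in Muc2 was wider than the spread within either, and the test, whose estimate of spread is shared with the DSS mice, did not call it. Spink4 was at 55.0% (log2 fold change -0.86, SE 0.62) and Agr2 at 72.9% (-0.46, SE 0.59), while Tff3 was at 114.8% (0.20, SE 0.53) and Zg16 at 159.5% (0.67, SE 0.47).

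With only the 6 mice of these 2 groups in the fit, 4 of the 7 were called: Clca1 (log2 fold change -3.08, adjusted p = 0.00288, edgeR), Fcgbp (-2.35, adjusted p = 0.00434, edgeR), Muc2 (-1.36, adjusted p = 0.00184, edgeR) and, in the other direction, Zg16 (0.68, adjusted p = 0.00614, edgeR). In that fit 1149 genes were called in all, against 457 with the DSS mice included. Clca1 and Fcgbp were also called by DESeq2 (adjusted p = 0.0174 and 0.00579), with epithelial scaling (adjusted p = 0.0344 and 0.0384, edgeR, where 0.255% of all genes were called lower), with that scaling less Lgals4 (adjusted p = 0.0165 and 0.0362, edgeR, 0.318%) and without DSS mouse 3 (adjusted p = 0.00699 and 0.00788, edgeR). Clca1 was called without DSS mouse 2 (adjusted p = 0.0453, edgeR) as well.

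The make-up of the mucus transcripts differed between the groups. Summed, the 7 genes had 25202.4, 40332.4 and 27841.5 CPM in the control mice, 9008.0, 3504.4 and 1146.0 CPM in the DSS mice and 21751.6, 22678.1 and 22716.4 CPM in the DSS + EA mice. Their share of all counts was 0.457% ± 0.388 in DSS mice and 2.17% ± 0.0298 in DSS + EA mice (SD, n = 3 each). The DSS mice were far apart in this sum and the DSS + EA mice nearly equal. Of the counts of the 7, Clca1 made up 11.7% ± 3.22 in the control, 1.18% ± 1.33 in the DSS and 2.02% ± 0.488 in the DSS + EA group (SD, n = 3 each). Fcgbp made up 6.19% ± 2.02, 1.6% ± 0.679 and 1.7% ± 0.268, and Muc2 2.89% ± 0.753, 1.54% ± 0.757 and 1.5% ± 0.218. Zg16 went the other way, with 12.9% ± 3.23, 23.1% ± 4.95 and 27.5% ± 1.21, and so did Tff3, with 14.9% ± 2.74, 19.8% ± 2 and 23% ± 1.39. Agr2 had 19.2% ± 3.77, 27.9% ± 5.76 and 18.9% ± 1.95, and Spink4 32.2% ± 5.95, 24.9% ± 2.64 and 25.5% ± 3.43. As shares of 1 sum, some must rise where others fall.

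**Figure D3:**
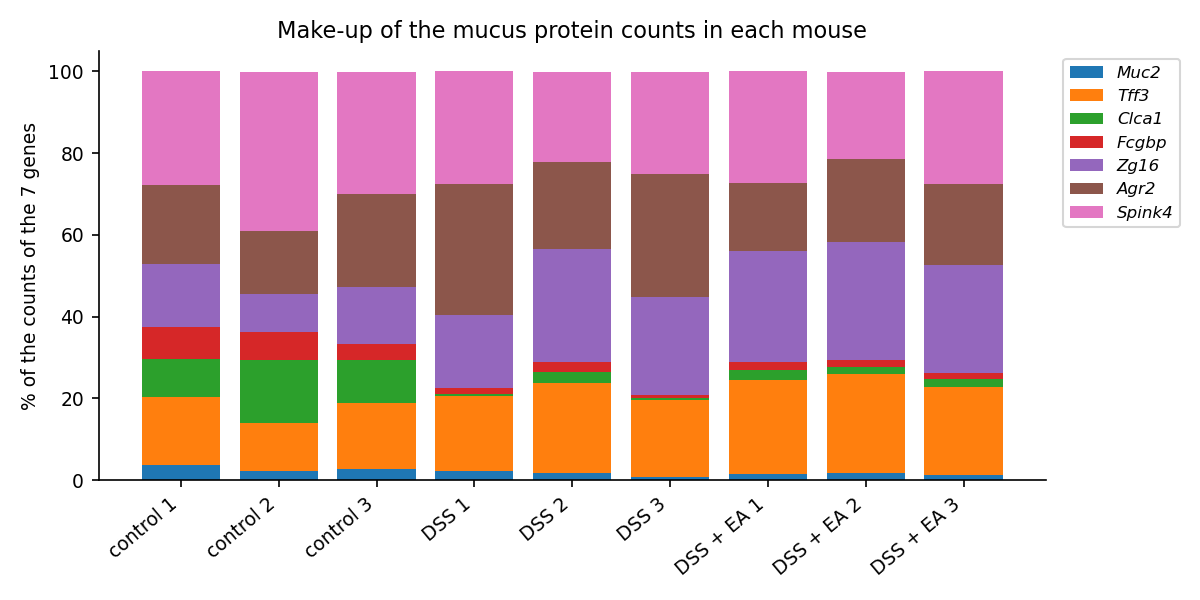
Share (vertical axis, %) of each gene in the summed counts of the 7 genes, 1 bar per mouse. Clca1 makes up 11.7% on average in the control mice and 2.02% in the DSS + EA mice, and Zg16 12.9% and 27.5%.

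Ratios of these genes within a library do not depend on how libraries are scaled. Zg16 was taken as the reference after its values were seen, since its control mice differed least, and its own mean was higher in the DSS + EA than in the control group, which lowers every ratio to it there. Per 100 Zg16 counts, Muc2 had 23.7, 23.5 and 20 counts in controls, 12.3, 6.24 and 2.98 in the DSS mice and 5.65, 5.89 and 4.77 in the DSS + EA mice. Clca1 had 60.1, 165 and 74.7, then 2.45, 9.83 and 1.6, then 9.41, 5.5 and 7.23. Fcgbp had 49.2, 75.2 and 27.8, then 8.61, 8.35 and 4.01, then 7.1, 6.14 and 5.28.

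For each of these 3 genes the DSS + EA mice overlapped the DSS mice and lay below all control mice. The pattern was not particular to them. All 6 ratios to Zg16 lay below every control mouse in the DSS + EA group, and 5 of the 6 overlapped the DSS mice. The log2 ratio of Spink4 differed by -1.45 (SE 0.40) from the control and by -0.25 (SE 0.31) from the DSS group. Against the control group the log2 ratio differed by -2.04 for Muc2 (SE 0.12), by -3.65 for Clca1 (SE 0.50) and by -2.94 for Fcgbp (SE 0.43). Each had an exact permutation p of 0.1, the smallest that 3 against 3 allows. Set against the DSS mice, the log2 ratios of Muc2, Clca1 and Fcgbp in the DSS + EA mice differed by -0.18 (SE 0.60), 1.09 (SE 0.82) and -0.11 (SE 0.38). The exact permutation p was 0.7, 0.4 and 0.8. Tff3 kept closest to Zg16, with 116 ± 9.02, 87.7 ± 13.7 and 83.5 ± 1.78 counts per 100 over control, DSS and DSS + EA mice (SD, n = 3 each). Agr2 differed from the others: its ratio in the DSS mice (181, 77.2 and 127) overlapped the control mice (124, 164 and 164), and every DSS + EA mouse (61.5, 70 and 74.6) was below both groups.

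**Figure D4:**
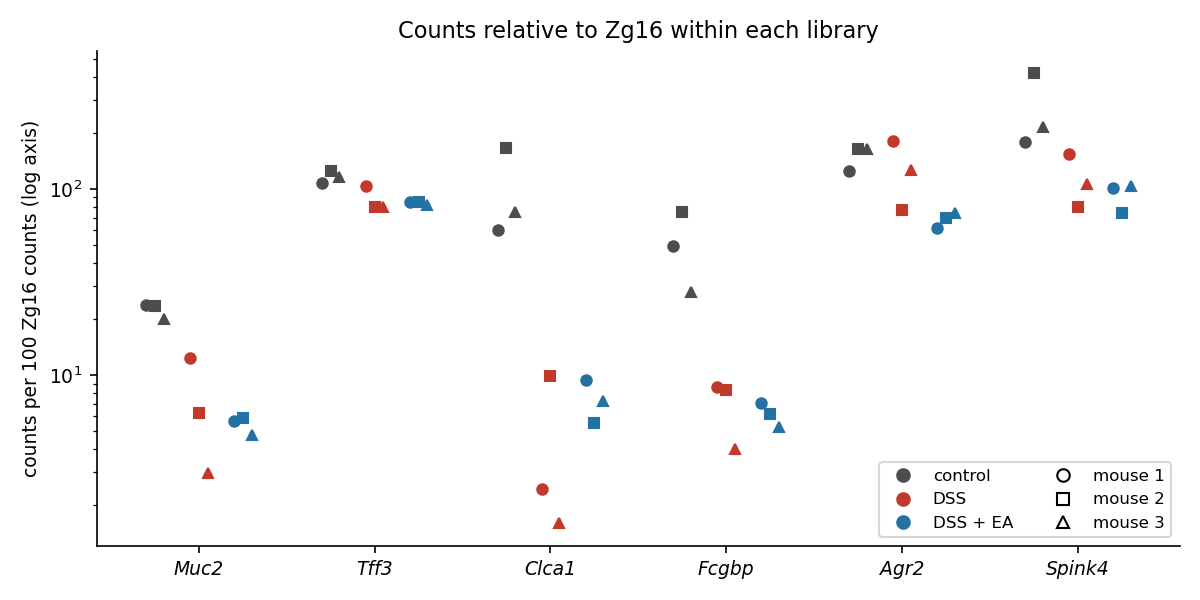
Counts of 6 mucus protein genes per 100 Zg16 counts in the same library, on a log axis, by gene on the horizontal axis. Colors give the group and shapes the mouse. In all 6 genes the DSS + EA mice lie below all control mice, and in 5 of the 6 they overlap the DSS mice.

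The 3 genes furthest below control in the DSS + EA group, Clca1, Fcgbp and Muc2, also have the longest annotated transcripts of the 7. Over all tested genes with a length, the class of Clca1 (2000 to 4000 bases, 4534 genes) had median log2 fold changes of -0.06 for DSS against control, 0.09 for DSS + EA against DSS and 0.03 for DSS + EA against control. The class of Fcgbp (4000 to 8000 bases, 2855 genes) had 0.16, -0.19 and -0.04. Muc2 falls in the former class by its transcript of 2032 bases and in the latter by the exons of all its models. The next class, 8000 bases and more (504 genes), had larger shifts in the 3 comparisons, 0.34, -0.49 and -0.10. Fcgbp falls in that class by the exons of all its models, which cover 10497 bases. The part of transcript length in the levels of these genes was not tested.

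Over the 9 libraries the log2 CPM of the 7 genes moved together. Pearson's r between pairs ran from 0.79 (Clca1 with Zg16) to 0.99 (Tff3 with Zg16), and Clca1 and Fcgbp had 0.98. These points are 3 groups that differ in level and share depth and tissue make-up, so the values only describe the libraries. Spink4 and Muc2 had the highest r with the mean profile of the 7 (0.99 each) and Zg16 the lowest (0.93). Among 10120 other genes with a mean of at least 5 CPM, the profiles most like that mean were those of Tpsg1, a tryptase (r = 0.996), Chp2, a calcineurin-like protein (0.996), a new locus of the Nanopore annotation (ONT.3324, 0.991), Pdxdc1 (0.990) and Muc4, a membrane mucin (0.989). Tpsg1 had 105.5 ± 19.6, 6.453 ± 6.845 and 59.05 ± 11.58 CPM over control, DSS and DSS + EA mice, and Muc4 had 20.29 ± 1.325, 2.585 ± 2.574 and 15.86 ± 1.94 CPM (SD, n = 3 each).

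Genes upstream and around the mucus proteins were read from lists of known function, some of which share genes. The counts called in each list are to be read beside the shares over all genes tested. For DSS against control these were 19.5% lower and 21.5% higher. For DSS + EA against DSS they were 17.2% higher and 18.3% lower, and for DSS + EA against control 3% higher and 0.637% lower. Of 6 tested transcription factors of goblet cells, 4 were called lower after DSS and 4 higher in DSS + EA than in DSS mice. None of the 6 was called between the DSS + EA and control groups by edgeR or DESeq2, and 1, Foxa3, had an unadjusted p under 0.05. Atoh1, which starts the secretory lineage, had 147, 95 and 101 counts in controls, 0, 2 and 0 in the DSS mice and 99, 73 and 105 in the DSS + EA mice. Foxa3 had 24.69 ± 5.547, 2.143 ± 0.9672 and 14.07 ± 2.292 CPM and Spdef, which drives goblet cell maturation, 47.91 ± 9.158, 5.153 ± 2.573 and 30.8 ± 7.388 CPM in the same order (SD, n = 3 each).

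Of 9 tested other proteins that goblet and neighbouring secretory cells release, 7 were called lower in the DSS group, 3 higher in the DSS + EA than in the DSS group and 3 lower in the DSS + EA than in the control group. Those 3 were Itln1, Ang4 and Mptx1. Itln1, a lectin, had a log2 fold change of -6.19 (SE 0.97, adjusted p = 0.00874, edgeR). Ang4, an antimicrobial ribonuclease, had -8.33 (SE 1.53, adjusted p = 0.0168, edgeR), and Mptx1, a mucosal pentraxin, -9.26 (SE 2.01, adjusted p = 0.0356, edgeR). Mptx1 had 79374, 175804 and 39865 counts in controls, 16, 2103 and 9 in the DSS mice and 178, 37 and 268 in the DSS + EA mice. Summed over the list, the level was 50027.8 ± 34989.3 CPM in the control, 1210.6 ± 1082.7 in the DSS and 4467.7 ± 766.6 in the DSS + EA group (SD, n = 3 each). Those called higher in the DSS + EA than in the DSS group were Tff2, Klk1 and Sval1. In that comparison DESeq2 called 2 of the 9. Tff2, a trefoil peptide also made in the stomach, had 8, 247 and 141 counts in DSS + EA mice 1, 2 and 3, high in the mice with most pancreatic RNA. What part other tissue had in the Tff2 counts was not tested.

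Enzymes that put sugars on mucins followed the mucus proteins in part. Of 17 tested, 11 were called lower and 1 higher in the DSS group, 10 higher and 1 lower in the DSS + EA than in the DSS group, and none between the DSS + EA and control groups by edgeR or DESeq2, where B3gnt6, Fut2 and Gcnt1 had an unadjusted p under 0.05. B3gnt6, which builds core 3 glycans, had log2 fold changes of -4.59 (SE 0.52, adjusted p = 0.000195, edgeR), 3.25 (SE 0.54, adjusted p = 0.00218) and -1.33 (SE 0.39, adjusted p = 0.106) in the 3 comparisons. Fut2, a fucosyltransferase, was called lower in the DSS group (log2 fold change -1.72) and higher again with EA (adjusted p = 0.00139, edgeR). St3gal1, a sialyltransferase, was the gene that moved the other way, with log2 fold changes of 1.86 for DSS against control and -1.41 for DSS + EA against DSS.

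Of 13 tested genes for folding and quality control in the endoplasmic reticulum, where Muc2 is assembled, 6 were called lower and 1 higher in the DSS group, 7 in all, where DESeq2 called 4. In the DSS + EA group 4 were called higher and 2 lower than in the DSS group, against 17.2% and 18.3% of all genes tested. The 2 lower are near that share. These were 6 in all, where DESeq2 called 8. Against the control group none was called by edgeR or DESeq2, with 1, Pdia4, at an unadjusted p under 0.05. The lower ones in the DSS group included the isomerase Pdia5 (log2 fold change -1.68, adjusted p = 0.000339, edgeR) and Ern2, the stress sensor of mucous cells (-2.88, adjusted p = 0.00171, edgeR). Pdia4 (1.67), Pdia5 (1.37) and Ern2 (2.52) were higher again in the DSS + EA group. Atf6, a general stress sensor, was the gene called higher in the DSS group (0.59, adjusted p = 0.0377, edgeR), and it and Qsox1 were the 2 called lower in the DSS + EA group. Both were named after their values were seen.

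Of 16 genes for granule release and for the salt and water that hydrate mucus, 10 were called lower in the DSS group, 10 higher in the DSS + EA than in the DSS group and none against the control group by edgeR or DESeq2, with 1, Kcnn4, at an unadjusted p under 0.05. Rab27b and Rab27a, small GTPases of secretory granules, had log2 fold changes of -2.38 and -1.93 in the DSS group, and Nlrp6, a sensor linked to mucus release, -3.94 (adjusted p = 0.000872, edgeR). Nlrp6 rose by 4.06 between the DSS and DSS + EA groups (adjusted p = 0.00131, edgeR).

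**Figure D5:**
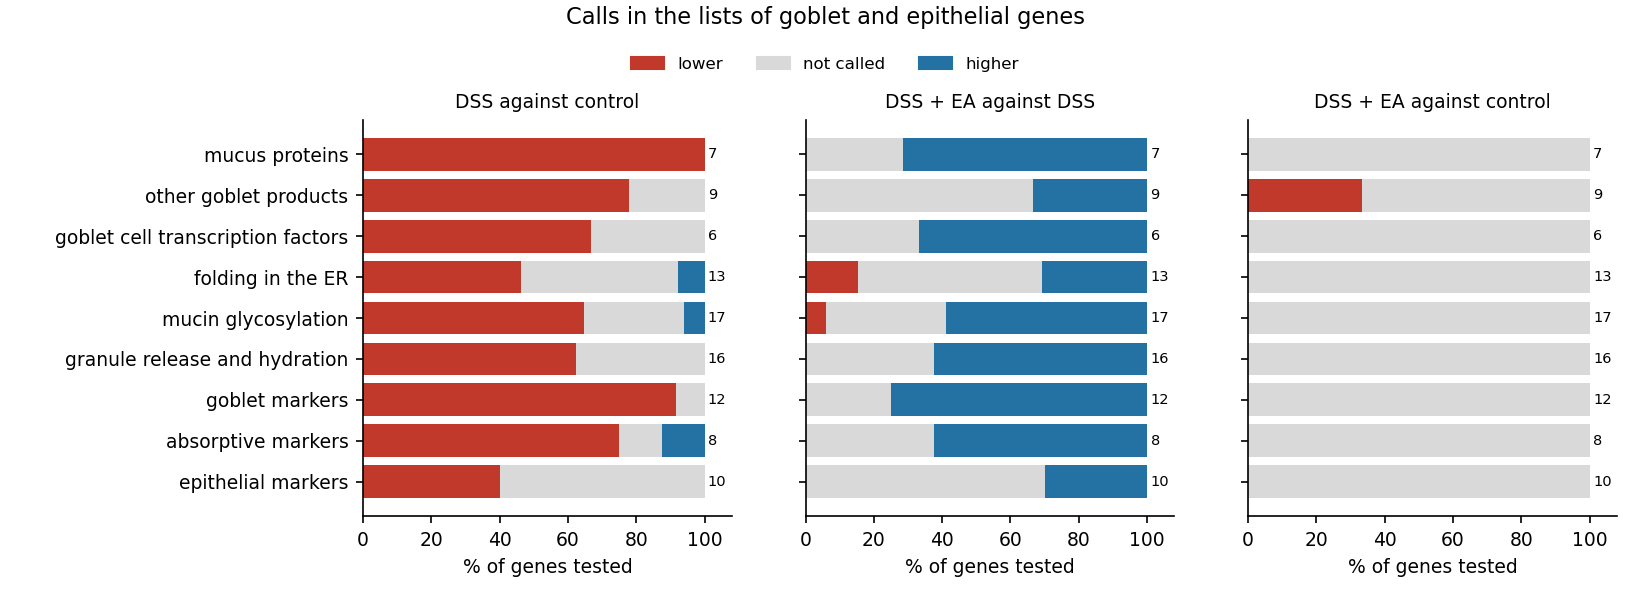
Share of tested genes (horizontal axis, %) called lower (red), not called (grey) or called higher (blue) in each list and comparison, with the number tested beside each bar. Red bars fill most goblet lists for DSS against control, blue bars for DSS + EA against DSS, and for DSS + EA against control the other goblet products (3 of 9) are the one list of those drawn that holds a call.

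Of 12 tested goblet cell markers other than the 7, 11 were called lower in the DSS group, where DESeq2 called 9. The summed levels of the list were 4327.9 to 5068.5 CPM in the control mice and 157.3 to 838.7 CPM in the DSS mice. Klk1, a secreted kallikrein also counted among the other secreted proteins, gave 81.8% to 82.7% of the sum in the control mice, and without it the sums were 789.8 to 906.3 and 126.7 to 328.5 CPM. Rep15 was the marker with the smallest p (log2 fold change -6.10, adjusted p = 5.92e-05, edgeR). In the DSS + EA group 9 of 12 were called higher than in the DSS group, where DESeq2 called 8. The sum of the list was 2551.8 to 3533.0 CPM there (610.6 to 695.9 CPM without Klk1). None was called against the control group by edgeR or DESeq2, with Bcas1 and Capn9 at an unadjusted p under 0.05. St6galnac1, also on this list and named after its values were seen, had 1 count in 1 control mouse and 1 in 1 DSS + EA mouse and was not tested.

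Other cell types moved in the same libraries. Of 10 epithelial markers, 4 were called lower in the DSS group and 3 higher in the DSS + EA than in the DSS group. Of 8 markers of absorptive cells, 6 were called lower and 1, Ms4a10, higher in the DSS group, and 5 higher in the DSS + EA than in the DSS group. Of 6 smooth muscle markers, 5 were called lower in the DSS group and 1 higher in the DSS + EA than in the DSS group. For 6 enteroendocrine markers these counts were 2 and 2, and for 4 tested B and plasma cell markers 1 and 1. In the DSS group the summed level of 8 neutrophil markers was 4508.0 to 27139.3 CPM, against 22.61 to 158.6 CPM in the control mice and 1195.2 to 1586.6 CPM in the DSS + EA mice. DSS mouse 3, lowest in all 7 mucus genes, was the highest in this sum, and DSS mouse 1 the lowest of its group. S100a8 gave 19174.0 of the 27139.3 CPM in DSS mouse 3. The order differed between the markers, which are named after their values were seen. Among the DSS mice, S100a8, Retnlg, Mmp8, Cxcr2 and Csf3r were highest in mouse 3, S100a9 and Ngp in mouse 2, and Ly6g in mouse 1. Mouse 1 was the lowest of the group in all of them but Ly6g. Fibroblast markers summed to 4078.5 to 6796.2 CPM in the DSS, 753.5 to 823.6 CPM in the control and 1612.4 to 1702.6 CPM in the DSS + EA group, and macrophage markers to 1466.6 to 2607.8, 466.1 to 485.2 and 944.2 to 1035.3 CPM. The part of these cells in the levels of the mucus genes was not tested.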

How the data were processed

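Total RNA of colon tissue was sequenced on the Nanopore PromethION platform from PCR-amplified cDNA. The authors deposited a table of read counts per gene, not normalized, in which 9 columns hold the libraries. The submitters' processing notes name the genome build mm10. The aligner, counter, annotation and use of strand are not given in the sources used here, so overlapping genes cannot be told apart with certainty. Of 27733 lines, 14 without counts were left out, and 0 columns with values were unmapped.

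Counts were analysed with edgeR 4.0.16 (R 4.3.3): genes were filtered with filterByExpr by group, which kept 12566, and TMM factors, a quasi-likelihood fit over all 9 libraries with 1 shared spread and Benjamini-Hochberg adjustment over all genes followed. Standard errors were taken from the log2 fold change and the F value. DESeq2 1.42.0 was an alternative, as were other scalings, filters, thresholds and subsets of mice. Ratios of counts were compared with exact two-sided permutation tests (scipy 1.17.1). The fits were tested on simulated data. Transcript lengths came from GENCODE M21 and promoters from RefSeq. Protein sequences were not used here.

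The genes and lists were chosen with earlier results of these data known. Named were all 7 genes in every mouse, up to 3 genes of smallest adjusted p per list and comparison, and the 5 genes with the most similar profile. Muc19 of the lists had no line in the table. The mice of a group are separate animals with 1 library each. At a total of 2627695 to 4235576 counts, genes near 3 counts are at the limit of detection, and this limit covers counting error only.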

Additional observations from a re-analysis of the deposited data

How the results depend on the processing

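All 7 genes kept their direction in every comparison under each alternative run. With the study's DEG rule in place of the adjusted p, 4, 3 and 1 of the 7 genes passed for DSS against control, DSS + EA against DSS and DSS + EA against control, where the adjusted p called 7, 5 and 0. With 1 mouse left out, between 6 and 7, between 3 and 7 and between 0 and 2 of the 7 genes were called. Between the DSS + EA and control groups epithelial scaling called 2, that scaling without Lgals4 2, DESeq2 2, no filter 1 and a fit of only the 2 groups 4. With epithelial scaling without Lgals4, an alternative chosen after seeing the data, 6 were called for DSS against control and 6 for DSS + EA against DSS.

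The counts over all genes were also recomputed after seeing the data. They were 5144, 4457 and 457 in the 3 comparisons, and 1280, 806 and 261 under the DEG rule. Between the DSS + EA and control groups they were 215 with epithelial scaling, 296 with that scaling without Lgals4, 702 with DESeq2, 1149 with only the 2 groups, 54 with DSS + EA mouse 1 alone and between 110 and 772 with 1 mouse left out. Against the DSS group mouse 1 alone gave 807. The cause of these differences was not tested.

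The labels do not say whether the mouse numbers pair the animals. Mice with the same number in 2 groups deviated from their group means with correlations of -0.16 to 0.11. For mice with different numbers the correlations were -0.20 to 0.26. With 3 mice per group these values cannot decide whether the animals were paired. With the replicate number as a block, 7, 6 and 0 of the 7 genes were called. The block added Muc2 between the DSS + EA and DSS groups (log2 fold change 2.43, adjusted p = 0.0448, edgeR) and changed no other call among the 7.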
